A study of Mus musculus with 47 samples.

Results

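The genes described here are the core of the machinery that holds back and releases transcription elongation: Hexim1, Hexim2, Cdk9, Ccnt1, Ccnt2, Larp7 and Mepce. They are 7 of 19596 genes and unnamed probes on mouse Illumina bead arrays, taken by gene symbol, each represented by the probe with the highest mean over all arrays. Of the 7, 6 had a probe annotated to them. Hexim2 had none and is not analysed here. Ccnt2 stayed below the filter on dim probes, so 5 were tested. Hexim1 was selected on its difference between transgenic and wild-type mice under the control treatment, where it passed the test in all 3 regions, so that difference is given below as a description without a test.

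The mice were R6/2(300Q) transgenic animals and wild-type animals on a CBA x C57BL/6 background, and RNA was measured in 3 brain regions: striatum, cortex and cerebellum. R6/2 mice carry the first exon of human huntingtin with a long glutamine repeat under the human promoter, and are a model of Huntington's disease; a fragment expressed from a transgene differs from a mutation in the animal's own huntingtin gene. The groups were transgenic mice given 4b, wild-type mice given 4b, transgenic mice under a control treatment and wild-type mice under a control treatment, in each of 3 regions. 4b is an inhibitor of histone deacetylases, enzymes that remove acetyl groups from histones. Treated mice, 4 months old at the start, drank a 1 mg/ml solution of it instead of water over 67 days, and the labels do not say what the control mice drank. Each of the 12 groups had 4 arrays, except wild-type control cerebellum with 3, which makes 47. Both sexes were used, and the labels say neither that replicates were separate animals nor whether the regions of 1 mouse were used together, so the p-values here reflect only how far these samples spread, which may be technical.

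RNA polymerase II pauses soon after it starts a gene and is released by P-TEFb, a kinase made of CDK9 and a cyclin T (from Ccnt1 or Ccnt2). Much of the cell's P-TEFb is held inactive on the small nuclear RNA 7SK. There, HEXIM1 or its relative HEXIM2 inhibits the kinase, LARP7 protects the RNA and MEPCE caps it. HEXIM1 takes its name from its induction by hexamethylene bisacetamide in human cells, and P-TEFb released from 7SK can drive the rapid transcription of stimulus-response genes.

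The upstream sequences of the 2 members with the clearest differences, Hexim1 between genotypes and Ccnt1 between regions, are shown because they are the DNA next to the starts of these transcripts. Hexim1 lies at chr11:103116325-103119725 on the plus strand of GRCm38.p6, with Hexim2 3535 bases downstream. Its 250 bases before the start are chr11:103116075-103116324, with the letters TATATAA in capitals. Ccnt1 lies at chr15:98538690-98567736 on the minus strand, and its window is chr15:98567737-98567986, with both matches to GGGCGG, a GC box, in capitals.
Hexim1: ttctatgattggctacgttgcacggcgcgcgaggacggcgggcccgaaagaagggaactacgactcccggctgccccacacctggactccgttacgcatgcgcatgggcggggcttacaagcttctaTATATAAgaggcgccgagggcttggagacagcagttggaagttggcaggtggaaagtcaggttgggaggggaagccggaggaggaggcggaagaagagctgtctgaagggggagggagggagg
Ccnt1: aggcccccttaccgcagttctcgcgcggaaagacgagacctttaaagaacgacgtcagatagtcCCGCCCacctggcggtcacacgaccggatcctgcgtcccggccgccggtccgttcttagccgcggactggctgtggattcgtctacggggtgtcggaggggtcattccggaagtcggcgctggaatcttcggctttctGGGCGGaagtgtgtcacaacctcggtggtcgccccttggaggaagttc
These sequences come from RefSeq, where 5 of the 7 members had an entry. Searched on both strands, the Hexim1 window held TATATAA starting 123 bases before the start, GGGCGG at 145 and CCAAT, on the minus strand, at 243. It held neither TATAAA nor the cAMP response element TGACGTCA. TATATAA occurs in 3.04% of 32851 RefSeq windows of this length, TATAAA in 12.4%, GGGCGG in 32.7%, CCAAT in 33.8% and TGACGTCA in 1.55%. In the Ccnt1 window the GC boxes lay at 186 on the minus strand and at 48 on the plus strand. The 2 windows were 61.2% (Hexim1) and 62.8% (Ccnt1) G and C, against a median of 52.4% over all windows. A match is only a description of letters.

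All 47 labelled arrays were used. Median intensity before normalization ran from 122.2 to 289.3, replicates of a group correlated at 0.978 to 0.994, and the Y-linked gene Eif2s3y separated the labelled sexes on 47 of 47 arrays. The number of arrays limits the precision. Markers fitted the labelled regions: the summed level of striatal projection neuron genes was at most 11.9 outside the striatum, against 15.11 or more within it. Levels below are normalized log2 intensities of 1 probe, which compare groups for a gene but not one gene with another. Probes for 3 Y-linked genes on the 26 female arrays, where no transcript exists, averaged 6.30 ± 0.20 (SD) and reached 6.75.

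In 4b-treated mice Hexim1 was higher in transgenic than in wild-type animals in every region. The same order under control treatment is what the gene was selected on. In striatum of 4b-treated transgenic mice the 4 arrays read 11.36, 11.42, 11.11 and 11.17, against 10.30, 10.37, 10.34 and 10.38 in wild-type mice given 4b. In cortex they read 11.14, 10.73, 11.29 and 11.22 in transgenic 4b mice, against 10.26, 10.23, 10.52 and 10.46 in wild-type 4b mice. In cerebellum they read 11.87, 11.48, 11.45 and 11.70 in transgenic 4b mice, against 10.78, 10.69, 10.70 and 10.75 in wild-type 4b mice. In each region the lowest transgenic array lay above the highest wild-type array; groups failed to overlap for 11.3% of tested genes in striatum, 13.1% in cortex and 13.5% in cerebellum.

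**Figure D1:**
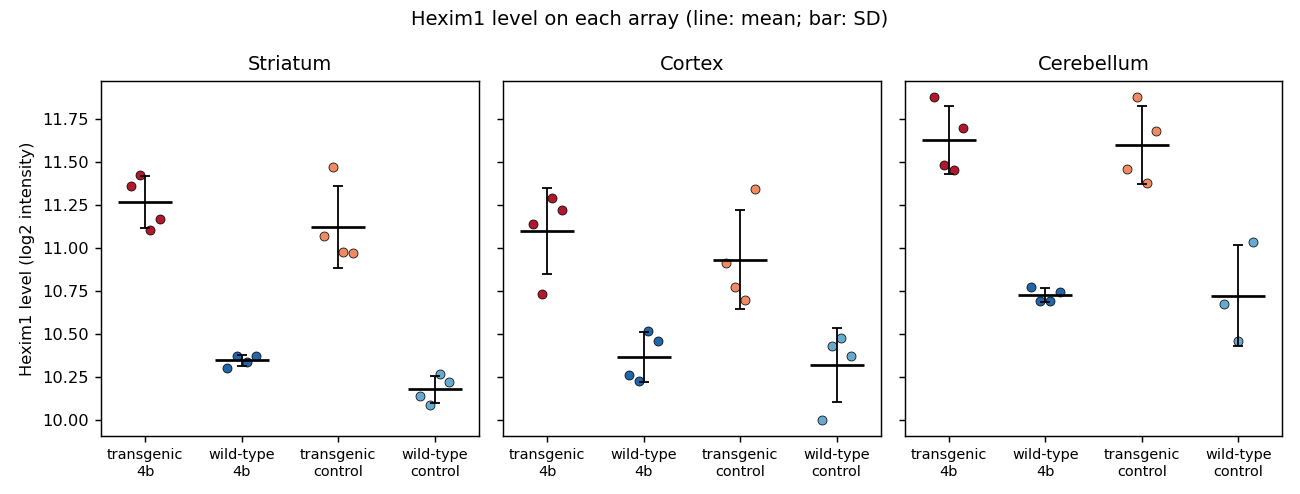
Normalized log2 Hexim1 intensity on each of the 47 arrays, by region, genotype and treatment, with group means (lines) and SD (bars). Every transgenic group lies above the wild-type group of its treatment and region, and both cerebellar transgenic groups, at 11.63 and 11.60, are the highest. Hexim1 was selected on the control groups.

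The arrays of control mice, on which Hexim1 was selected, had the same order. Transgenic control striatum read 11.07, 11.47, 10.98 and 10.97, against 10.14, 10.09, 10.27 and 10.22 in wild-type control striatum. Transgenic control cortex read 10.91, 10.77, 10.70 and 11.34, against 10.005, 10.43, 10.48 and 10.38 in wild-type control cortex. Transgenic control cerebellum read 11.46, 11.88, 11.38 and 11.68, against 10.68, 10.46 and 11.04 in wild-type control cerebellum. One transgenic array stood highest in each region, at 11.47, 11.34 and 11.88, and no group pair overlapped, as for 10.9%, 11.8% and 7.78% of tested genes in striatum, cortex and cerebellum. These log2 differences, 0.94, 0.61 and 0.87, chose the gene; 3.78%, 5.09% and 0.689% of genes passed the same contrast in striatum, cortex and cerebellum, and nothing is read from that here.

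The genotype difference was tested on the 4b-treated mice, whose arrays did not enter that choice. Hexim1 was 1.89-fold higher in striatum, by 0.92 on the log2 scale (95% interval 0.69 to 1.14, limma adjusted p = 1.1e-04). It was 1.66-fold higher in cortex, by 0.73 (0.41 to 1.04, adjusted p = 0.0079), and 1.86-fold higher in cerebellum, by 0.90 (0.60 to 1.19, adjusted p = 0.0070). Among all genes tested, 4.51% passed in striatum, 5.52% in cortex and 1.44% in cerebellum. By p, Hexim1 ranked 16th in striatum, 231st in cortex and 17th in cerebellum. Over the 3 regions together the difference was 0.85 ± 0.08 (SE), or 1.80-fold (adjusted p = 3.2e-10), the 8th smallest p of 11327 genes, of which 16% passed. That joint value treats regions as independent, although they may come from the same mice, and the fit of the 4b-treated mice shares its estimate of spread with the control arrays of the region.

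**Figure D2:**
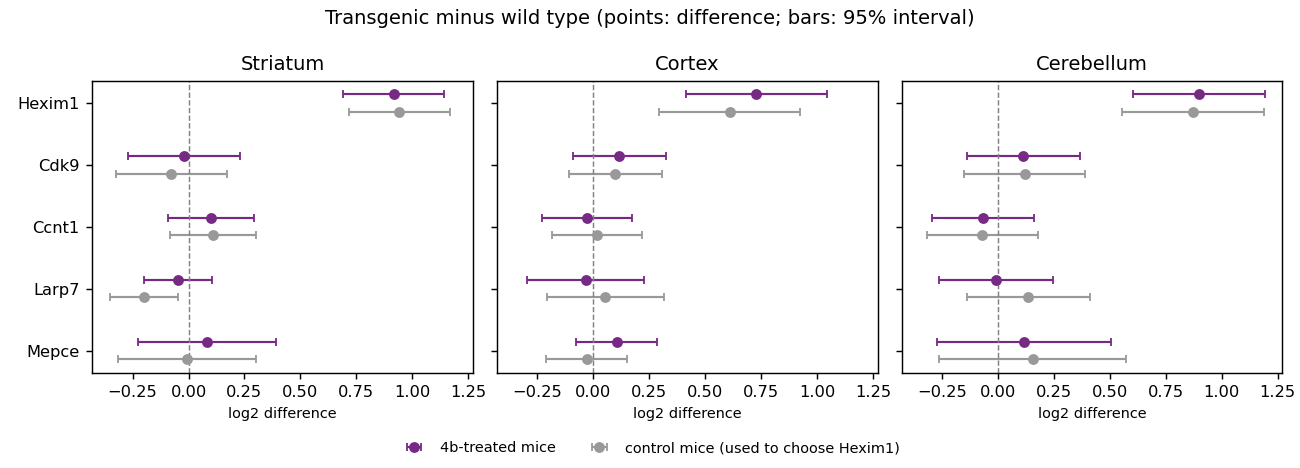
Log2 difference, transgenic minus wild type, of the 5 tested members in each region, with 95% intervals, in 4b-treated mice (purple) and in control mice (grey). The grey contrast is the one on which Hexim1 was selected and is shown as a description. Its Hexim1 intervals are shaped by that selection and are not a test. Hexim1 stands near 0.9 in striatum and cerebellum and 0.73 (4b) or 0.61 (control) in cortex, while every 4b interval of the other members includes 0.

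The size of the Hexim1 difference was not shown to vary between regions. Striatum exceeded cortex by 0.19 (95% interval -0.20 to 0.58, limma adjusted p = 0.91), striatum exceeded cerebellum by 0.02 (-0.37 to 0.41, adjusted p = 0.99), and cortex minus cerebellum was -0.17 (-0.56 to 0.22, adjusted p = 0.81). Differences between regions in the genotype difference passed for 0.377%, 1.2% and 0.982% of genes in these comparisons. The intervals leave room for a gap of up to about 0.58 between striatum and cortex.

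The arrays were spread over 6 BeadChips, the glass slides on which several samples are read together. In 4b-treated mice the genotypes met on a few of them. On the shared slide the transgenic minus wild-type difference of Hexim1 was 0.81 in striatum (1 transgenic array and 2 wild-type), and 0.85 in cerebellum (2 of each). In cortex it was 0.88 on one slide (1 of each) and 0.78 on another (2 transgenic and 1 wild-type). With the BeadChip as a block over all arrays, all 3 Hexim1 differences passed: 0.89 in cerebellum, 0.81 in cortex, 0.89 in striatum. In control mice the genotypes shared no slide in striatum or cortex, so no within-slide value exists there, and on the 1 shared slide in cerebellum the Hexim1 difference was 0.92.

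Some cell type markers moved with genotype beside Hexim1. In bulk RNA, fewer cells of a type and less RNA per cell cannot be told apart. In striatum the log2 summed level of 6 striatal projection neuron markers was 15.12 to 15.50 in transgenic 4b mice and 15.75 to 15.97 in wild-type 4b mice. In cortex that of 7 astrocyte markers was 14.73 to 14.84 in transgenic 4b mice and 15.03 to 15.29 in wild-type 4b mice, and that of 7 cortical excitatory neuron markers was 15.24 to 15.31 against 15.60 to 15.86. In cerebellum 7 oligodendrocyte markers summed to 15.64 to 15.88 in transgenic 4b mice and to 15.99 to 16.08 in wild-type 4b mice, while 8 cerebellar neuron markers overlapped, at 16.25 to 16.37 in transgenic and 16.20 to 16.47 in wild-type 4b mice. Microglial markers summed to 11.89 to 12.30 in transgenic 4b cerebellum and 11.60 to 11.74 in wild-type 4b cerebellum. Astrocyte markers also lay apart in cerebellum, at 15.52 to 15.67 in transgenic and 15.70 to 15.84 in wild-type 4b mice, but overlapped in striatum. Cortical excitatory markers lay apart in striatum, at 13.79 to 14.12 in transgenic and 14.17 to 14.36 in wild-type 4b mice. Striatal projection neuron markers did so in cerebellum, at 10.88 to 11.05 in transgenic and 11.13 to 11.31 in wild-type 4b mice. Of the tested markers, 5 of 6 striatal projection neuron genes fell in transgenic 4b striatum, where 2.93% of all genes fell. In transgenic 4b cortex 3 of 7 astrocyte genes and 2 of 7 cortical neuron genes fell, where 3.41% of all genes fell. Their part in the Hexim1 difference was not tested. Choroid plexus markers, from tissue that can be dissected along with cerebellum, summed to 14.68 to 15.05 in transgenic 4b cerebellum and 11.29 to 15.08 in wild-type 4b cerebellum, but to 11.27 to 13.74 in transgenic control and 11.68 to 15.01 in wild-type control cerebellum. These markers also ran from 10.26 to 14.49 in transgenic control cortex and from 10.23 to 11.80 in wild-type control cortex. The part of choroid plexus in the Hexim1 difference of 4b-treated cerebellum, 0.90, was not tested.

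Ranked by mean, the 12 groups of Hexim1 ran from 11.63 ± 0.20 (SD, n = 4) in transgenic 4b cerebellum to 10.18 ± 0.08 (SD, n = 4) in wild-type control striatum. Transgenic control cerebellum followed the first at 11.60 ± 0.23. Next came transgenic 4b striatum at 11.27 ± 0.15, transgenic control striatum at 11.12 ± 0.24, transgenic 4b cortex at 11.10 ± 0.25 and transgenic control cortex at 10.93 ± 0.29 (SD, n = 4 each). The wild-type groups took all the lower places: 4b cerebellum at 10.73 ± 0.04, control cerebellum at 10.72 ± 0.29 (n = 3), 4b cortex at 10.37 ± 0.14, 4b striatum at 10.35 ± 0.03, control cortex at 10.32 ± 0.22 and control striatum. Between neighbours in this order, the gap exceeded the larger SD of the pair at 2 places, between transgenic control cerebellum and transgenic 4b striatum (0.33) and between wild-type control cerebellum and wild-type 4b cortex (0.36). Other neighbours did not differ beyond their spread. The control groups of this order are those on which Hexim1 was selected.

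4b gave no detectable change in Hexim1. In transgenic mice 4b minus control was 0.14 in striatum (95% interval -0.08 to 0.37), 0.16 in cortex (-0.15 to 0.48) and 0.03 in cerebellum (-0.27 to 0.33). In wild-type mice it was 0.17 in striatum (-0.06 to 0.39), 0.05 in cortex (-0.27 to 0.36) and 0.003 in cerebellum (-0.32 to 0.32). Averaged over the 6 strata the difference was 0.09 ± 0.06 (SE, interval -0.02 to 0.21, limma adjusted p = 0.60), so all 6 estimates were at or above 0 and none passed. The control arrays of both genotypes also entered the contrast that chose the gene, so none of these 4b differences is free of that choice. In wild-type striatum the ranges did not overlap, at 10.30 to 10.38 with 4b and 10.09 to 10.27 under control treatment, as for 2% of genes in that comparison. With limma 0% of genes passed in any of the 6 strata, and unadjusted p was under 0.05 for 305, 257 and 560 genes in transgenic striatum, cortex and cerebellum and for 400, 1098 and 1079 in wild-type mice. The averaged comparison passed 0.0883% of genes, 10 of 11327. Within shared slides 7 of 9 Hexim1 values were above 0. They were -0.36 in transgenic striatum, 0.30 and 0.52 in transgenic cortex, 0.20 in transgenic cerebellum, 0.11 and 0.26 in wild-type striatum, 0.12 in wild-type cortex and 0.01 and -0.32 in wild-type cerebellum, with 1 or 2 arrays a side.

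**Figure D3:**
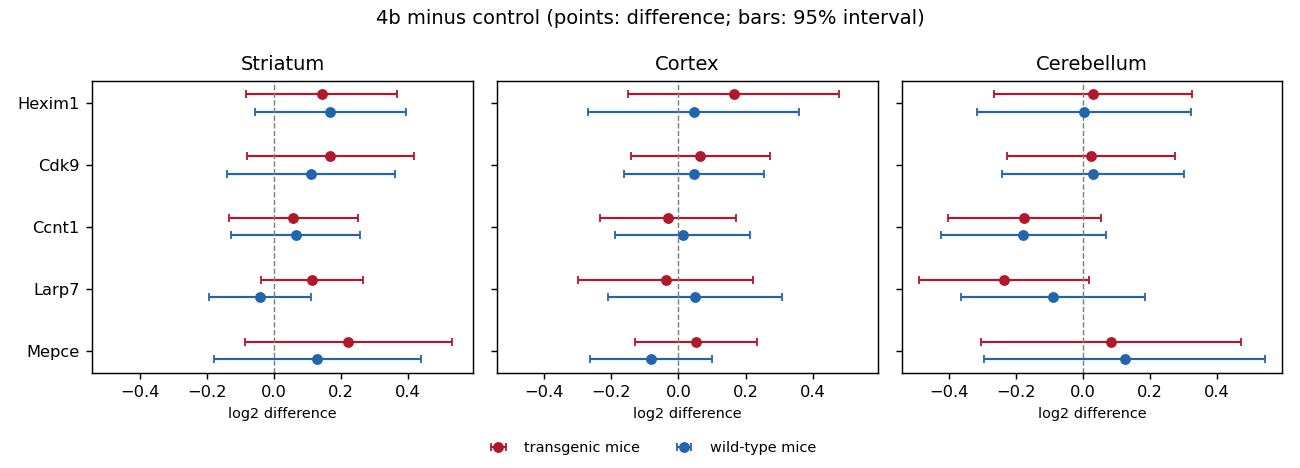
Log2 difference, 4b minus control, of the 5 tested members by region, with 95% intervals, in transgenic mice (red) and wild-type mice (blue). Every interval includes 0.

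The kinase and its cyclins showed no genotype or 4b difference that passed. Cdk9, the catalytic subunit of P-TEFb at chr2:32705782-32712784, read 9.55, 9.97, 9.50 and 9.82 in transgenic 4b striatum, against 9.82, 9.67, 9.78 and 9.64 in wild-type 4b striatum, so the groups overlapped. Its difference in 4b-treated mice was -0.02 in striatum (95% interval -0.27 to 0.23), 0.12 in cortex (-0.09 to 0.33) and 0.11 in cerebellum (-0.14 to 0.37), or 0.07 over the regions (-0.06 to 0.20, limma adjusted p = 0.51). For Cdk9 4b minus control averaged 0.07 (-0.02 to 0.17, adjusted p = 0.61). Its 12 group means lay between 9.54 and 9.90.

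Ccnt1, which encodes cyclin T1, read 11.68, 11.73, 11.52 and 11.78 in transgenic 4b striatum, against 11.67, 11.59, 11.48 and 11.55 in wild-type 4b striatum. The groups overlapped, and the difference of 0.10 had an interval from -0.09 to 0.29. In cortex it was -0.03 (-0.23 to 0.18), in cerebellum -0.07 (-0.29 to 0.16), and over the regions 0.003 (-0.11 to 0.11, limma adjusted p = 0.98). The averaged 4b difference of Ccnt1 was -0.04 (-0.12 to 0.04). Its values in cerebellum were -0.18 in transgenic and -0.18 in wild-type mice, neither of which passed. Ccnt2, for cyclin T2, had group means from 6.22 to 6.46, and its second probe from 6.00 to 6.27, all within the readings of Y-linked probes on female arrays, so no level or difference of Ccnt2 could be measured.

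The proteins that bind 7SK RNA behaved likewise. Mepce, the capping enzyme at chr5:137781906-137786701, read 10.79, 11.08, 10.69 and 11.29 in transgenic 4b striatum, against 10.98, 10.55, 11.14 and 10.86 in wild-type 4b striatum. These ranges overlapped. Its genotype difference in 4b-treated mice was 0.08 in striatum (95% interval -0.22 to 0.39), 0.10 in cortex (-0.08 to 0.29) and 0.12 in cerebellum (-0.27 to 0.50), none of which passed, and 0.10 over the regions (-0.07 to 0.27, limma adjusted p = 0.47). The averaged 4b difference of Mepce was 0.09 (-0.04 to 0.21, adjusted p = 0.65).

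Larp7, the RNA-binding protein that protects 7SK, at chr3:127536714-127553349, was dim, with group means from 6.83 to 7.56 that lay little above the brightest Y-linked reading of 6.75. It read 6.88, 6.95, 7.02 and 6.91 in transgenic 4b striatum, against 7.06, 6.86, 6.98 and 7.04 in wild-type 4b striatum. Its genotype difference in 4b-treated mice was -0.05 in striatum (95% interval -0.20 to 0.11), -0.03 in cortex (-0.29 to 0.23) and -0.01 in cerebellum (-0.26 to 0.25), and none passed. For Larp7 4b minus control in transgenic mice was 0.11 in striatum (-0.04 to 0.26), -0.04 in cortex (-0.30 to 0.22) and -0.24 in cerebellum (-0.49 to 0.02). These did not pass either. In control striatum, the contrast used for choosing, Larp7 read 6.81, 6.85, 6.80 and 6.85 in transgenic mice, against 7.05, 6.96, 6.98 and 7.11 in wild-type mice. That value of -0.20 has no test here and stood at -0.05 in 4b-treated mice. The other 2 Larp7 probes gave 0.14 and 0.08 in 4b-treated striatum, the opposite sign.

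Across regions of wild-type control mice the clearest difference was the higher Ccnt1 level of cerebellum; differences of Hexim1 and Larp7 also passed, but rested on 1 array or 1 probe in part. Ccnt1 read 11.40, 11.61, 11.39 and 11.63 in striatum and 11.53, 11.82, 11.66 and 11.82 in cortex, against 12.57, 12.64 and 12.79 in cerebellum. Neither forebrain region overlapped with cerebellum, as for 38.6% of genes against striatum and 41.1% against cortex. Ccnt1 was 2.24-fold lower in striatum than in cerebellum (log2 difference -1.16, 95% interval -1.37 to -0.95, limma adjusted p = 1.1e-12) and 1.95-fold lower in cortex than in cerebellum (-0.96, interval -1.17 to -0.76, adjusted p = 2.2e-10). The second Ccnt1 probe gave the same direction with smaller differences, -0.59 and -0.50. Striatum minus cortex was -0.20 for Ccnt1 and did not pass (adjusted p = 0.11). Region differences were common: 43.3% of genes passed between striatum and cerebellum, 41.6% between cortex and cerebellum and 29.8% between striatum and cortex.

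Hexim1 was lower in striatum than in cerebellum, with wild-type control arrays at 10.14, 10.09, 10.27 and 10.22 against 10.68, 10.46 and 11.04 (difference -0.54, 95% interval -0.84 to -0.25, limma adjusted p = 0.0023). The Hexim1 difference between cortex and cerebellum, -0.40 (-0.70 to -0.10, adjusted p = 0.026), had overlapping groups. Both rested on the third cerebellar array at 11.04, labelled replicate 4: without it the striatal difference was -0.39 (adjusted p = 0.053) and the cortical one -0.24 (adjusted p = 0.25). The cortical call was lost as well without wild-type control cortex 1, at -0.30 (adjusted p = 0.13). Striatum minus cortex was -0.14 for Hexim1 and did not pass. These wild-type control arrays also entered the contrast that chose Hexim1.

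Larp7 was also lower in striatum (-0.40, limma adjusted p = 0.0036) and cortex (-0.55, adjusted p = 1.2e-04) than in cerebellum. The other Larp7 probes gave -0.01 and 0.16 for striatum and -0.19 and -0.13 for cortex, so the striatal difference is that of 1 probe. It was -0.08 with the mean of the Larp7 probes (adjusted p = 0.54). Cdk9 (-0.04 and 0.08) and Mepce (0.13 and 0.02) did not pass for striatum or cortex minus cerebellum, and their wild-type control ranges overlapped.

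**Figure D4:**
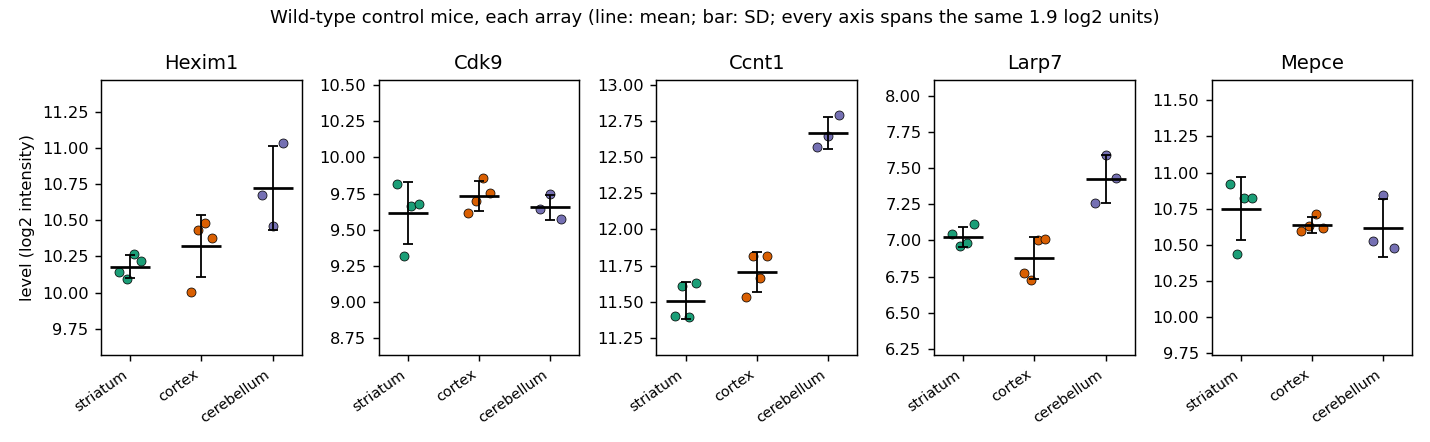
Normalized log2 level of the 5 tested members on each array of wild-type control mice in striatum, cortex and cerebellum, with means (lines) and SD (bars), on axes of equal span. The Ccnt1 arrays of cerebellum, at 12.57 to 12.79, lie above all those of the forebrain regions, at 11.39 to 11.82.

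Of 86 other elongation genes in 7 lists, 73 were on the arrays and 59 to 60 were tested. In 4b-treated mice 2 of 60 differed by genotype in striatum (3.33%, against 4.51% of all genes), 0 of 60 in cortex and 1 of 59 in cerebellum (1.69%, against 1.44%). By limma at an unadjusted p under 0.05 there were 9, 12 and 10. Over the regions 9 rose and 2 fell, 11 of 59 or 18.6%, against 16% of all genes. These shares lay near those of all genes, so they are no result about elongation genes as a group. The median difference was 0.036, against 0.016 over all genes. The count was 7 with any 1 of 3 transgenic 4b arrays left out, cerebellum 1, cortex 3 or striatum 4.

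Among the factors that recruit P-TEFb or release it from 7SK, 4 of 14 rose over the regions and none fell, where 8.17% of all genes rose and 7.82% fell. With so few genes in each list, nothing particular to a list is read from these counts. Brd3, a bromodomain protein that binds acetylated histones, ranged over 12.62 to 12.72 in transgenic 4b striatum and 12.32 to 12.52 in wild-type 4b striatum. In cortex its range was 12.65 to 12.92 in transgenic 4b mice and 12.42 to 12.50 in wild-type 4b mice, and in cerebellum 12.79 to 13.07 and 12.58 to 12.74. Brd3 groups of 4b-treated mice did not overlap in any region, as for 11.3% (striatum), 13.1% (cortex) and 13.5% (cerebellum) of genes. In control mice the genotypes overlapped in all 3. Brd3 ranged there over 12.32 to 12.79 in transgenic and 12.15 to 12.40 in wild-type striatum. The control ranges were 12.51 to 12.86 and 12.24 to 12.65 in cortex, and 12.78 to 13.15 and 12.63 to 12.85 in cerebellum. Brd3 means were still higher in transgenic control mice: 12.61 against 12.28 in striatum, 12.72 against 12.46 in cortex and 12.97 against 12.76 in cerebellum. In 4b-treated mice the Brd3 means were 12.67 against 12.43, 12.77 against 12.45 and 12.92 against 12.65 in these regions. Its joint difference in 4b-treated mice was 0.28 ± 0.05 (SE, limma adjusted p = 2.4e-04). Ppm1g, a phosphatase that helps release P-TEFb, rose by 0.24 (adjusted p = 9.3e-04). Jmjd6, a dioxygenase, at 0.23 (adjusted p = 0.0038) and the splicing factor Srsf2, which binds 7SK, at 0.22 (adjusted p = 0.0010) were the other 2; both were named after their values were seen. These 4 passed under each alternative tried, with differences between 0.20 and 0.30.

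Of the 6 genes of DSIF and NELF, the factors that hold the paused polymerase, 2 rose, against 8.17% of all genes. Nelfb, a NELF subunit, averaged 9.36 ± 0.16 in transgenic 4b striatum and 8.87 ± 0.17 in wild-type 4b striatum (SD, n = 4 each), and its arrays did not overlap there, at 9.23 to 9.59 and 8.63 to 9.01, as for 11.3% of genes. In control striatum Nelfb overlapped, at 9.05 to 9.35 in transgenic and 8.84 to 9.08 in wild-type mice. The means there were 9.23 in transgenic and 8.95 in wild-type mice. The Nelfb difference of 0.49 in 4b-treated striatum passed (limma adjusted p = 0.013). For Nelfb, cortex gave 0.14 and cerebellum 0.25, neither past the test, and the joint value was 0.30 ± 0.06 (SE, adjusted p = 2.2e-04). The test between striatum and cortex did not pass for Nelfb (adjusted p = 0.46). Nelfa, another subunit, rose by 0.18 over the regions (adjusted p = 0.0062), a call lost with median scaling (adjusted p = 0.072).

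**Figure D5:**
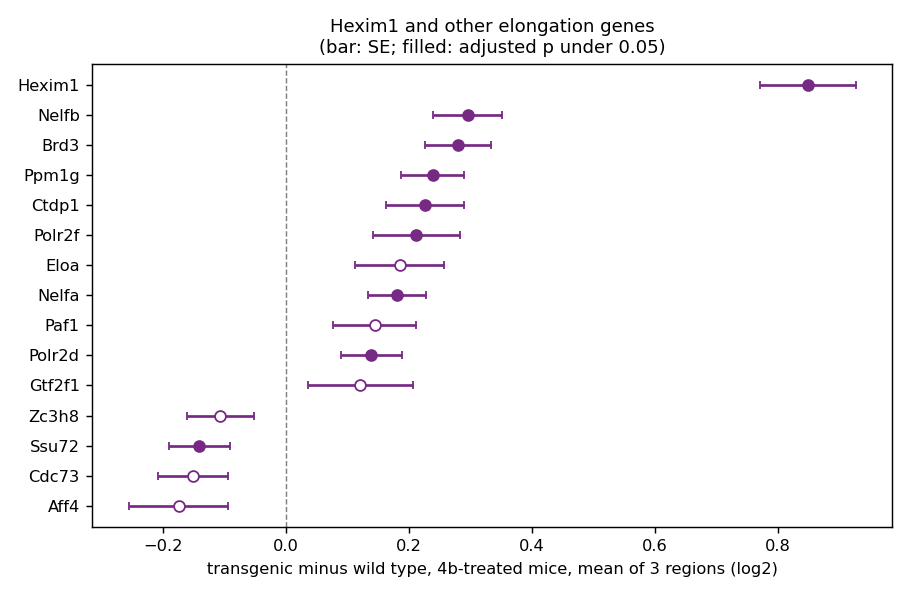
Log2 difference, transgenic minus wild type in 4b-treated mice averaged over 3 regions, with SE, for Hexim1 and the 2 genes with the smallest p of each of 7 elongation lists; filled points passed the test. Hexim1 at 0.85 lies beyond Nelfb at 0.30, the largest of the other 14.

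The remaining lists moved little. The super elongation complex is an assembly that carries active P-TEFb to paused genes. In the list drawn up around it, none of 6 passed over the regions by limma (1 at an unadjusted p under 0.05). Aff4, a scaffold gene of the complex, was at -0.17 (limma adjusted p = 0.15). Zc3h8, a further gene of that list, was at -0.11 (limma adjusted p = 0.19). In the PAF complex, which travels with the polymerase, none of 3 passed over the regions (2 unadjusted): Cdc73 was at -0.15 (adjusted p = 0.067, passing in 7 of 36 alternatives) and Paf1 at 0.14 (adjusted p = 0.15). In cerebellum Cdc73 was lower, at 6.89 in transgenic 4b mice against 7.32 in wild-type 4b mice (log2 difference -0.43, limma adjusted p = 0.040). That call was lost with any 1 of the 8 compared arrays left out. In control cerebellum Cdc73 averaged 7.14 in transgenic and 7.10 in wild-type mice. These levels lay little above the brightest Y-linked reading of 6.75. None of 10 histone chaperones and elongation factors passed (1 unadjusted), with Eloa, a subunit of elongin, at 0.18 (adjusted p = 0.078, passing in 4 of 37 alternatives) and Gtf2f1, of TFIIF, at 0.12 (adjusted p = 0.38).

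Among 11 transcription-cycle kinases and phosphatases 1 rose and 2 fell. Ctdp1, a phosphatase of the polymerase tail, rose by 0.23 (limma adjusted p = 0.011). Ssu72, another tail phosphatase, was lower by 0.14 (difference -0.14, adjusted p = 0.046), and Ppp1ca, a catalytic subunit of protein phosphatase 1, had -0.21 (adjusted p = 0.049), a joint value named after it was seen. Leaving out single arrays ended the call of Ssu72 for 18 of 24 arrays and that of Ppp1ca for 17 of 24. Ppp1ca fell in striatum, by 0.63 (adjusted p = 0.018, or 0.055 without transgenic 4b striatum 1), and its striatal difference was lower than its cerebellar one by 0.72 (difference -0.72, adjusted p = 0.030). Of 9 subunits of RNA polymerase II 2 rose, Polr2f by 0.21 (adjusted p = 0.034) and Polr2d by 0.14 (adjusted p = 0.0497), calls lost for 10 and 19 of the 24 left-out arrays. For the averaged 4b comparison 0 of 59 elongation genes passed by limma, with 10 at an unadjusted p under 0.05.

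Immediate early genes, a class of stimulus-response genes, were lower where they passed. A link of these genes to Hexim1 or P-TEFb was not tested. With 6 genes tested, nothing particular to this list is read from the counts. Over the regions 2 of 6 tested fell and none rose in transgenic 4b mice, where 7.82% of all genes fell. Their median difference was -0.365, against 0.016 for all genes. Dusp1, a phosphatase of MAP kinases, fell by 0.39 (limma adjusted p = 0.014) and Arc, a synaptic protein, by 0.41 (adjusted p = 0.023, or 0.051 with median scaling). In 4b-treated striatum alone Egr2 was at -1.53 (limma adjusted p = 0.035), a call lost in 7 of 21 alternatives. In 4b-treated cortex alone Arc was at -0.69 (limma adjusted p = 0.0497), a call lost in 12 of 21. The summed level of the 12 genes was 14.27 to 14.41 in transgenic 4b striatum and 14.51 to 14.95 in wild-type 4b striatum, but the genotypes overlapped in the other 4b-treated regions and in control striatum. In cortex it was 14.64 to 14.79 in transgenic 4b mice and 14.75 to 15.25 in wild-type 4b mice, and in cerebellum 13.56 to 14.04 in transgenic 4b mice and 13.97 to 14.20 in wild-type 4b mice. In control striatum it was 14.25 to 14.71 in transgenic and 14.30 to 15.22 in wild-type mice.

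The genes most like Hexim1 were found by Pearson correlation over the 47 arrays after removing the mean of each region, among 11326 genes, 84.5% of which had r between -0.5 and 0.5. The arrays share the genotype split, so such an r mainly describes genes that differ by genotype as Hexim1 does. The highest named genes were Celf5 (r = 0.89), a regulator of splicing, 1110038B12Rik (0.88), N4bp2l1 (0.88), Tekt2 (0.86), a protein of cilia, Fbl (0.85), the nucleolar methylase fibrillarin, Ece2 (0.84), a peptidase, Xpa (0.82), of DNA repair, and Cbx8 (0.82), of a Polycomb complex. With group means removed as well, r was 0.70 for Tekt2, 0.53 for 1110038B12Rik, 0.42 for Ece2, 0.40 for Celf5 and 0.40 for N4bp2l1. It was 0.35 for Xpa, 0.14 for Cbx8 and 0.13 for Fbl. The most opposite were Igfbp5, an insulin-like growth factor binding protein (-0.90), Hey1, a Notch target (-0.89), and Acss1, a mitochondrial acetyl-CoA synthetase (-0.84), at -0.76, -0.58 and -0.57 with median scaling. Between transgenic and wild-type 4b mice Igfbp5 differed most in cerebellum (-1.74), then striatum (-1.11) and cortex (-0.75), and Celf5 most in striatum (1.34), then cortex (1.17) and cerebellum (0.75).

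With only region means removed, the other members were less like Hexim1, with r of 0.36 for Cdk9, 0.28 for Ccnt1, 0.22 for Mepce and -0.08 for Larp7. With group means removed, r with Hexim1 was 0.61 for Ccnt1, 0.51 for Cdk9, 0.09 for Mepce and -0.06 for Larp7. On that measure Ccnt1 and Cdk9 lay above most of the named genes most like Hexim1, but below Tekt2 at 0.70. These values are descriptions over 47 arrays that share BeadChips and normalization.

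None of the tested neighbours of Hexim1 on chromosome 11 passed the genotype test in 4b-treated mice. On the lower side the 3 nearest measured genes were Plcd3, a phospholipase C, Nmt1, an N-myristoyltransferase, and Dcakd, and on the upper side Fmnl1, a formin, Spata32, below the filter, and Map3k14, the NF-kappa-B inducing kinase. Their differences over the regions in 4b-treated mice were -0.09 for Plcd3, 0.01 for Nmt1, -0.10 for Dcakd, -0.07 for Fmnl1 and -0.17 for Map3k14 (limma adjusted p = 0.11 for Map3k14 and higher for the others). None of the 5 tested passed in any single region, and Map3k14 passed jointly in 2 of 37 alternatives. Between Hexim1 and the nearest measured gene lay 1 annotated gene on the lower side and 2 on the upper, not analysed here.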

How the data were processed

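The deposited table held non-normalized intensity values of 24613 probes for 47 arrays. BeadStudio is named, without a version, per the submitters' processing notes. 1 further column, which fitted no labelled sample, was left out. The authors also deposited log2 values, which lay within 0.0115 of the log2 of the same intensities after quantile normalization.

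Intensities were corrected with normexp (offset 50) and quantile-normalized in R 4.3.3 with limma 3.58.1. Symbols (1 for 20984 probes, several for 1, none for 3628) were updated through a table of GRCm38.p6, where 20968 probes matched by gene identifier. The probe with the highest mean stood for each gene. A gene was tested where its region mean exceeded the 40th percentile of all probes. Each region had a limma fit of 4 groups; joint and between-region comparisons used 12 groups on 47 arrays. Calls used a two-sided Benjamini-Hochberg adjusted p under 0.05, over all genes tested. The tests ran on simulated arrays first.

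Members, lists and tests were chosen with earlier results of these data known. Named genes were all members, called list genes (at most 10 per comparison), the 2 with the smallest p per elongation list, the 8 most and 3 least like Hexim1, and the 3 nearest measured genes on either side; some called marker genes are given only as counts. Same-numbered samples of different groups were compared within each region. Of 69 such pairs 17 had r over 0.1 and 43 were of one sex, and numbers were not used to pair samples. That check did not compare regions. Alternatives changed background, scaling, filter, probes, trend, weights, arrays fitted, BeadChip, sex, replicate block and single arrays. Figures used matplotlib 3.10.9.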

Additional observations from a re-analysis of the deposited data

Results flagged for a closer look

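2 of 66 groups of 4 arrays held 1 array far from the rest, where chance alone gives about 1 in 20. Cdk9 in transgenic 4b cerebellum 1 was 9.99, against 9.73 to 9.75 on the other 3 arrays of its group. Ccnt1 in transgenic control cortex 3 was 11.55, against 11.77 to 11.79 on the other 3.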

How the results depend on the processing

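Members: of 2455 values of 100 member results under alternatives, 2441 kept their side of the threshold or, with no test, stayed within the spread between replicates. Of the rest, 8 lost and 1 gained a call, and 5 values with no test moved by more than that spread. No call reversed direction. The 2441 include 135 that changed sign with no call in either fit. The genotype difference of Hexim1 in 4b-treated mice passed in every region under every alternative run, at 0.86 to 0.97 in striatum, 0.66 to 0.85 in cortex, 0.82 to 0.96 in cerebellum and 0.82 to 0.89 jointly. With the replicate block the Hexim1 values were 0.92, 0.73 and 0.90, and the block changed no member's call. Hexim1 in cortex minus cerebellum lost its call with median scaling (-0.43), array weights (-0.40) and the compared groups alone (-0.40), and ran from -0.53 to -0.24 with single arrays left out. Its striatum minus cerebellum difference ran from -0.68 to -0.39. Larp7 in striatum minus cerebellum lost its call with the mean of its probes (-0.08) and the BeadChip as a block (-0.32), and Ccnt1 in striatum minus cortex passed with array weights (-0.21). The stricter filter tested no Larp7. The causes were not tested.

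Genes called in the elongation lists by genotype in 4b-treated mice: striatum had 2, but 4 with array weights, 1 with the compared groups alone and 1 to 3 with single arrays left out (1 without transgenic 4b striatum 1). Cortex had 0, but 4 with the stricter filter, 3 with an intensity trend, 2 with the BeadChip as a fixed block or sex as a covariate, 1 with no background correction, the deposited log2 table, median scaling, the mean of probes or array weights, and 0 to 1 with single arrays left out. Cerebellum had 1, but 0 with median scaling, no filter or the stricter filter, 4 with array weights, 3 with the BeadChip block and 0 with any array left out. The regions jointly had 11, but 7 with median scaling or no filter and 7 to 12 with single arrays left out.

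Counts over all genes under the alternatives were as low as 178 (median scaling) for striatum, where 543 were called, and ran from 369 to 719 around 665 in cortex, 42 (without transgenic 4b cerebellum 4) to 1061 (array weights) around 174 in cerebellum and 1135 to 2566 around 1811 jointly. For 4b they reached 38 in transgenic and 96 in wild-type cerebellum, where the main count was 0, and 4 to 83 (without transgenic control cerebellum 1) around 10 for the average. Differences of the genotype difference between regions ran from 19 to 108 around 44 (striatum minus cortex), 68 to 436 around 138 (striatum minus cerebellum) and 23 to 414 around 113 (cortex minus cerebellum). Limits: 3 or 4 arrays a group, members near background (Ccnt2, Larp7), and BeadChips unevenly shared by the groups.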
